A study of Mus musculus with 4 samples.

Results

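Wide N6-methyladenosine (m6A) peaks of the newborn mouse heart are described here. Members were chosen by their measured width, as peaks that lay in 1 exonic block and covered 1000 or more bases of exon. There were 519 such peaks among the 20766 peaks of the control list (2.5%, exact 95% interval 2.29 to 2.72) and 444 among the 21179 peaks of the knockout list (2.1%, 1.91 to 2.3), together 963 of 41945. Both lists come from MeRIP-seq, which sequences RNA fragments caught by an antibody against m6A (the IP) beside the fragments before pull-down (the input). Control mice were Wtapflox/flox, which carry a Wtap gene that Cre recombinase can delete, and knockout mice were Wtap-CKO, a conditional knockout of Wtap. All mice were 4 days old, and the labels do not name the promoter that drives Cre. Heart RNA was pooled from 7 control and 8 knockout mice (300 µg), fragmented to about 100 nucleotides and held with the antibody for 2 h, which gave 1 IP and 1 input library per genotype and 4 libraries without replicates. No test between genotypes was therefore possible, the intervals printed after shares express counting error alone, and the lists carry no read totals, so depth is unknown.

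m6A is written in the nucleus by a complex in which Mettl3 and Mettl14 form the catalytic core and Wtap is the adaptor that brings the core to nuclear speckles. The mark is known to gather in long internal exons and around stop codons, and exon junction complexes shield RNA close to splice sites from the writer. A peak caller joins neighbouring enriched windows, so a wide peak can hold many modified sites that the assay does not resolve, and long exons and genes without introns give it the room. Width, fold and p of a peak come from the same IP over input comparison, so these values are given for wide peaks as a description and were not tested. The fold is the IP over input ratio that the authors' caller gave to the peak in its own list. Positions refer to mouse build GRCm39 and start counting at 1, and coding exons and UTRs were not told apart here.

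Wide peaks lay in 499 genes in control hearts and 429 in knockout hearts. The genes with a wide peak made up 4.65% of all control genes with a peak and 3.93% of all knockout genes with a peak. A wide peak was present in both lists for 282 genes, which is 56.5% of the control genes and 65.7% of the knockout genes concerned. Another 217 genes had one in the control list alone and 147 in the knockout list alone. Nearly all of these genes had some peak in the other list, namely 498 of 499 and 429 of 429, and the exception was Gm26795, a lncRNA gene. Over all genes with a peak, 9456 of 10734 control genes and 9456 of 10904 knockout genes had a peak in both lists. The lists thus seldom differed in whether a gene of this group had a peak. A peak elsewhere in a gene does not show that the same stretch was called, so these counts do not tell how the peaks differed. A gene could also count for a single list because its peak in the other list ran over several blocks, as in Akap12 and Arid1a. Wtap, the targeted gene, carried no wide peak in either list. All 8 defining genes of heart muscle, such as Myh6 and Tnnt2, had a peak in both lists, and none of the 8 had a wide one. Of the 5 endothelial markers all had a peak in both lists, and Cdh5 had a wide one in each. Fibroblast markers had a peak in 5 (control) and 6 (knockout) of 6 cases, smooth muscle and pericyte markers in 4 and 5 of 5, immune markers in 1 of 4 and erythroid markers in 2 of 4 in each list, and none of these had a wide one.

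The median wide peak measured 1240 bases in control hearts (quartiles 1109 and 1471, widest 4138) and 1229 bases in knockout hearts (1090 and 1469, widest 4137). The surplus of control peaks was spread over the width classes. From 1000 to under 1200 bases there were 234 control and 209 knockout peaks, from 1200 to under 1500 there were 162 and 132, from 1500 to under 2000 there were 95 and 77, and from 2000 bases there were 28 and 26. The control list thus held 75 more wide peaks although the knockout list held 413 more peaks in all. There is no replicate check for this difference, and it was not confined to wide peaks. Single-block control peaks were also more numerous in each 100-base class from 300 to under 1000 bases, as from 500 to under 600 (1031 against 835). Knockout peaks were more numerous in each class under 300, as from 100 to under 200 (4292 control, 4825 knockout). The median width of all single-block peaks was 270 bases for control and 240 for knockout. Wide peaks took up 705 kb of the 7475 kb in all control peaks (9.43%) and 603 kb of 7049 kb in the knockout list (8.55%). Widths moved in steps of about 30 bases, and 287 control and 243 knockout wide peaks were within 2 bases of a multiple of 30. Just inside the threshold stood Depp1 with 1004 bases in both lists, followed in the control list by Eid1 (1009) and Dmwd (1011). Just outside stood Camsap1, Macf1, Pirt and Ppp4r1l-ps with 991 bases in control hearts, and Ep300, Speg, Stard9 and Ttc28 with 990 in knockout hearts.

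**Figure D1:**
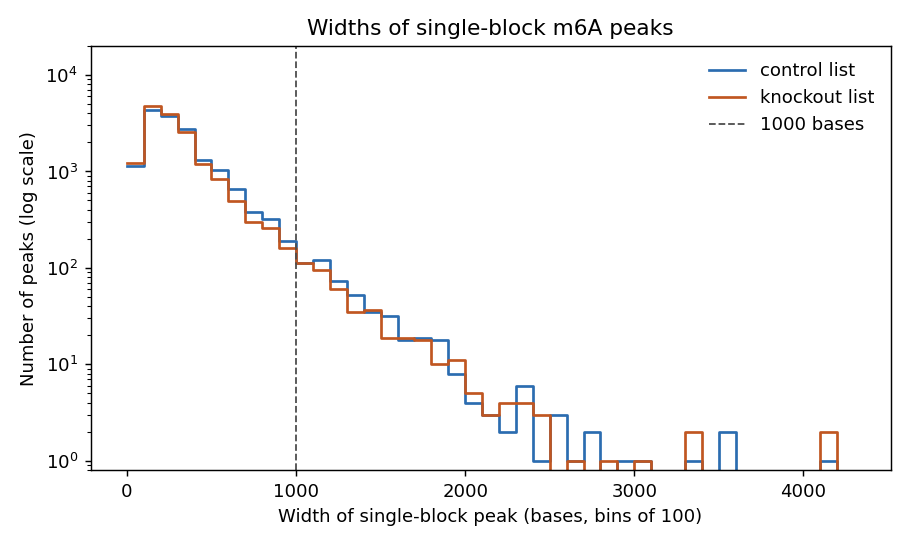
Number of single-block peaks (log scale) against peak width in bins of 100 bases, for the control list (blue) and the knockout list (orange), with the dashed line at 1000 bases. Most peaks are between 100 and 400 bases wide in both lists, and the tail beyond 1000 bases holds 519 control and 444 knockout peaks, the widest at 4138 and 4137 bases.

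The widest single-block control peak lay in Ankrd11, which encodes a large chromatin cofactor, on chromosome 8 at 123618735 to 123622872 (4138 bases, fold 13.0). The knockout list had nearly the same peak at 123618765 to 123622872 (4108 bases, fold 16). The widest single-block knockout peak lay in Nes, the gene of the intermediate filament protein nestin, on chromosome 3 at 87883172 to 87887308 (4137 bases, fold 18.7). The control list divided that stretch of Nes into a pair of wide peaks, 1140 bases at 87883172 to 87884311 (fold 6.47) and 3058 bases at 87884371 to 87887428 (fold 9.94). The same stretch was thus enriched in both lists, and the number of peaks depended on a short gap. Irf2bpl, which encodes an interferon regulatory factor 2 binding protein, had the same form on chromosome 12, with 3320 bases in the knockout list at 86928253 to 86931572 and 1944 and 1018 bases in the control list between the same outer ends.

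Several of the widest peaks were nearly alike in both lists. Peg13, an imprinted noncoding RNA gene, had 2961 bases in control hearts (chromosome 15, 72678466 to 72681426, fold 52.8) and 3020 bases in knockout hearts (72678436 to 72681455, fold 40.6). Ehbp1l1, which encodes a protein of vesicle traffic, had 2720 and 2840 bases (chromosome 19, from 5767600 in control hearts and 5767570 in knockout hearts). Uaca, which encodes a coiled-coil protein with ankyrin repeats, had 2635 and 2665 bases, and Numa1, which encodes a spindle pole protein, had 2551 and 2491 bases. Tlnrd1, a talin rod domain gene, had 2397 and 2487 bases. These peaks had a counterpart that covered at least 95.8% of their bases in either direction. Others among the widest differed more between the lists. Pcdh7, a protocadherin gene, had 3596 bases in the control list (chromosome 5, 57875758 to 57879353, fold 11.4), where the knockout list had a wide peak of 1708 bases and 3 narrower ones. Rai1, which encodes a chromatin protein, had 3358 bases in the control list (chromosome 11, 60077269 to 60080626, fold 20.5), which the knockout list divided into 1080, 420 and 1050 bases. Akap12, a scaffold gene for protein kinase A, had 3559 bases in the control list (chromosome 10, 4303401 to 4306959), inside a knockout peak of 5053 exonic bases that ran over 2 blocks and so falls outside the rule. The reverse held for Plin4, a lipid droplet gene, with 3325 bases in the knockout list (chromosome 17, 56410918 to 56414242) inside a control peak of 3625 exonic bases in 2 blocks. Such peaks of 1000 or more bases in several blocks numbered 239 in control hearts and 197 in knockout hearts.

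Wide peaks also stood high in fold and in the caller's p. Their median fold was 13.5 in control hearts (quartiles 10.1 and 19.1, range 3.57 to 121) and 15.9 in knockout hearts (10.3 and 25.1, range 2.37 to 134), against 6.99 and 6.8 for the narrower single-block peaks of the same lists. A fold of at least 10 was listed for 75.5% of wide control and 76.8% of wide knockout peaks, and for 35.4% and 35.9% of narrower ones. The median log10 p was -75.5 in control hearts and -66.6 in knockout hearts, against -8.54 and -7.3 for narrower peaks. A q at or under 1e-10 was listed for 512 of 519 wide control peaks (98.7%, 97.2 to 99.5) and 434 of 444 wide knockout peaks (97.7%, 95.9 to 98.9). Within the wide peaks, width hardly followed fold (Spearman 0.03 over 519 control peaks and 0.01 over 444 knockout peaks), and followed log10 p weakly (-0.23 and -0.28). These correlations run over peaks that share libraries and, in part, genes.

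The largest folds belonged to genes of several roles. Cdk13, a kinase of transcription elongation, had the largest fold of the wide control peaks, 121 on chromosome 13 at 17978274 to 17979682, and its knockout peak had identical ends and a fold of 33.8. Wnt5b, which encodes a secreted Wnt ligand, followed with 109 (chromosome 6, 119409611 to 119410714), where the knockout list had a peak of 597 bases with a fold of 33.8. In the knockout list the largest folds were those of Ercc2, a DNA repair helicase gene (134, 1051 bases on chromosome 7 at 19128539 to 19129589, control peak of 931 bases with fold 37.4), Tor4a, a torsin ATPase gene (128, against 52.1 in the control list), and Tlnrd1 (120, against 14.4). The smallest p values belonged to other genes. Cavin2, a caveola gene, had the smallest log10 p of the wide control peaks, -1710 on chromosome 1 at 51340083 to 51341311 (1229 bases, fold 15.9), and -973 in the knockout list (1349 bases, fold 9.13). Jund, an AP-1 transcription factor gene, had 1429 bases with identical ends in both lists (chromosome 8, 71151599 to 71153027), with log10 p of -1460 and -657 and folds of 15.7 and 6.7. Rhob, a small GTPase gene, also had identical ends (1903 bases, chromosome 12, 8548107 to 8550009), with folds of 13.4 and 13.5. Igfbp5, which encodes a binding protein of insulin-like growth factors, had 2242 bases in the knockout list (chromosome 1, 72897957 to 72900198, fold 39.1). Its log10 p there was listed as minus infinity. The control list had 1316 bases with a log10 p of -322 (fold 10.4). Control peaks of 389 and 210 bases lay inside the same knockout peak. Tcim, a regulator gene of Wnt signalling, also had a log10 p of minus infinity in the knockout list (1273 bases, chromosome 8, 24927728 to 24929000, fold 47.2), where the control list had narrower peaks of 208 and 622 bases.

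Wide peaks nearly always overlapped a peak of the other genotype (1 or more shared exonic bases, same strand). In the control list 510 of 519 wide peaks did (98.3%, 96.7 to 99.2) and 9 did not (1.73%, 0.796 to 3.27). All 444 wide knockout peaks had an overlapping control peak, which allows a share without one of up to 0.827%. Over all peaks, the share without an overlapping peak in the other list was 23.9% for the control list and 24.5% for the knockout list, and over narrower single-block peaks it was 27.7% and 25.8%. A wide peak has more bases with which to meet another peak, and it is also stronger. Among narrower single-block peaks with a q at or under 1e-10, the shares without an overlap were 11.0% and 4.05%. Among wide peaks that met this q they were 9 of 512 (1.76%, 0.807 to 3.31) and 0 of 434 (up to 0.846%). The comparison at this q was chosen after seeing the data. The q is only a floor, so the comparison equalises neither strength nor width.

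What the other list held there took 4 forms. Of wide control peaks, 298 (57.4%, 53.0 to 61.7) overlapped a knockout peak of 1000 or more exonic bases, 151 (29.1%, 25.2 to 33.2) overlapped 2 or more narrower peaks, 61 (11.8%, 9.11 to 14.8) overlapped 1 narrower peak, and 9 overlapped none. Of wide knockout peaks, 310 (69.8%, 65.3 to 74.1) overlapped a control peak of 1000 or more exonic bases, 93 (20.9%, 17.3 to 25) overlapped 2 or more narrower peaks, and 41 (9.23%, 6.71 to 12.3) overlapped 1. A peak chosen for its width in 1 list will often be narrower in the other by the choice alone, so the forms are read between the lists and not against 100%. Wide control peaks were divided in the knockout list more often than the reverse, a difference without a replicate check. Divided control peaks fell into 2 pieces in 122 cases, 3 in 24 and 4 or more in 5, and divided knockout peaks into 2 in 75, 3 in 10 and 4 or more in 8. The pieces were separated by a median of 179 bases in all for control peaks and 177 for knockout peaks, and the longest single gap was 713 and 419 bases.

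**Figure D2:**
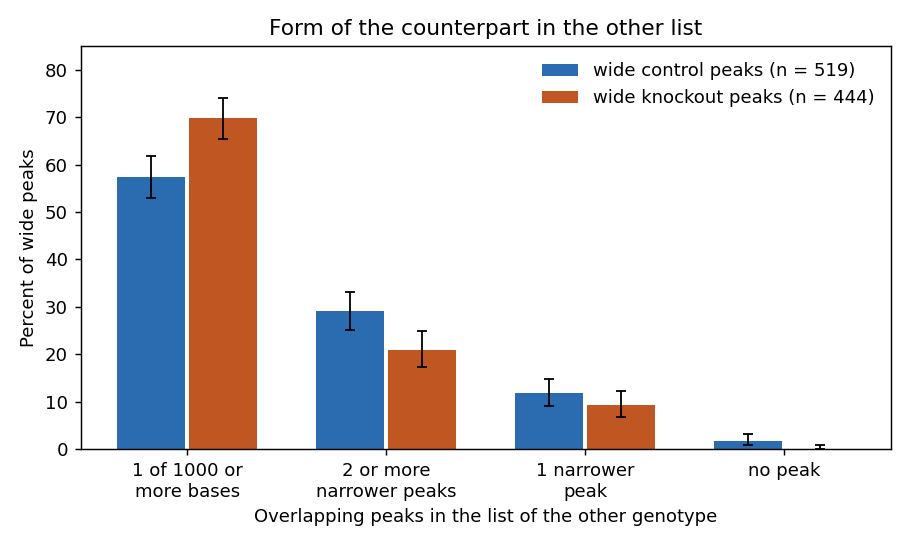
Percent of wide peaks (y axis) by what overlapped them in the list of the other genotype (x axis), for 519 wide control peaks (blue) and 444 wide knockout peaks (orange), with exact 95% intervals that cover counting error only. A wide counterpart was the most frequent form in both, at 57.4% and 69.8%, and division into 2 or more narrower peaks came next, at 29.1% and 20.9%.

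The widest control peaks divided in the knockout list came from genes of varied roles. Dido1, which encodes a nuclear protein that binds histone marks, had 2458 bases on chromosome 2 at 180300986 to 180303443 (fold 25.3), with knockout peaks of 960, 571 and 600 bases whose folds were 25.9, 5.75 and 9.24. Adprhl1, a heart gene of the ADP-ribosylhydrolase family, had 2361 bases on chromosome 8 at 13271663 to 13274023 (fold 14.8), with knockout peaks of 838, 269 and 329 bases whose folds were 4.43, 3.3 and 2.38. The pieces covered 85.5% of the Dido1 peak and 60.8% of the Adprhl1 peak. Zfp62, a zinc finger gene, had 2310 bases on chromosome 11 at 49105894 to 49108203 (fold 9.87), of which 3 knockout peaks covered 41.6%. Cenpf, a kinetochore gene of dividing cells, had 2189 bases on chromosome 1 at 189384498 to 189386686 and was covered by 80.9%. Ssh2, a cofilin phosphatase gene, had 2129 bases on chromosome 11 at 77344274 to 77346402 and was covered by 57.9%.

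In the other direction, Cilp, a matrix gene of cartilage and fibroblasts, had 1946 bases in the knockout list (chromosome 9, 65185732 to 65187677, fold 38.8), with control peaks of 360 and 959 bases and folds of 18.4 and 27.3. Ggta1, a glycosyltransferase gene, had 1860 bases (chromosome 2, 35290821 to 35292680, fold 17.8), with control peaks of 750 and 721 bases. Mki67, the gene of the proliferation marker Ki-67, had 1678 bases (chromosome 7, 135296152 to 135297829, fold 5.03), with control peaks of 510 and 690 bases and folds of 3.68 and 4.17. Mki67 and Cenpf, both genes of dividing cells, thus went in opposite directions. Maf, a bZIP transcription factor gene, had a pair of overlapping wide knockout peaks of 1284 and 1921 bases, which are listed separately and count as 2 members.

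The 9 wide control peaks without any overlapping knockout peak were those of Myadml2 (1349 bases), Gm17029 (1260), Mitf (1168), Strip2 (1140), Alpk2 (1078), Crybg3 (1050), Gm26795 (1048), Hjv (1044) and Znrf3 (1017). Strip2, which encodes a subunit of the striatin phosphatase and kinase complex, had the smallest log10 p of them, -288 on chromosome 6 at 29956744 to 29957883 (fold 8.52). Hjv, the gene of the BMP co-receptor hemojuvelin of muscle and liver, followed with -129 on chromosome 3 at 96435453 to 96436496 (fold 6.21). Mitf, a transcription factor gene of melanocytes that heart muscle also expresses, had -59.8 on chromosome 6 at 97994749 to 97995916 (fold 13.3). Strip2, Hjv and Mitf each had 1 other peak elsewhere in the gene in the knockout list, and 3, 3 and 2 peaks in the control list. Alpk2 encodes an alpha kinase of heart muscle. Gm17029 lies across a peak from the opposite strand, so reads of the overlapping genes are not told apart.

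The other list covered 82.3% of the bases of wide control peaks and 90.1% of those of wide knockout peaks, against 66.2% and 73.1% for narrower single-block peaks. Per peak, the median cover was 91.3% in control hearts (quartiles 73.6 and 98.7) and 94.3% in knockout hearts (85.9 and 100). Wide peaks that lay wholly inside peaks of the other list numbered 128 and 147. Cover under 50% was found for 15 wide knockout peaks. For the control list, 43 wide peaks had a cover from 25 to 50%, 9 a lower one above 0, and 9 none. Zfp770, a zinc finger gene, was at the low end, since 1288 bases of the control list (chromosome 2, 114026395 to 114027682, fold 37.5) met a knockout peak of 91 bases (fold 3.63).

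**Figure D3:**
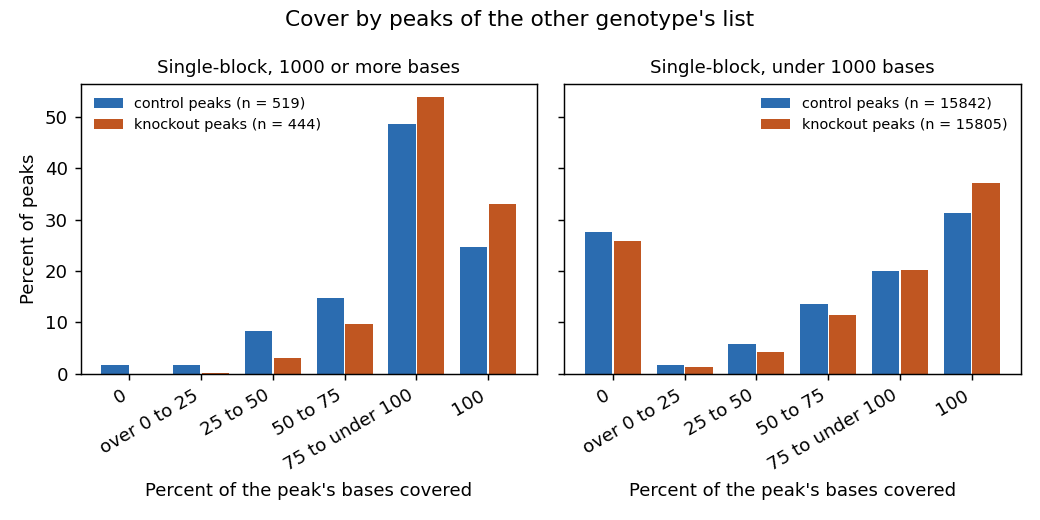
Percent of peaks (y axis) by the percent of their bases that peaks of the other genotype covered (x axis, classes), for single-block peaks of 1000 or more bases (left) and under 1000 bases (right), control in blue and knockout in orange. Wide peaks gather at 75% cover and above and seldom have none (1.73% of control and 0.0% of knockout), while 27.7% and 25.8% of narrower peaks have none.

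Where a wide peak met exactly 1 wide peak and that peak met no other, the ends could be compared directly. Of 206 such pairs, 91 were wider in the control list (44.2%), 81 were wider in the knockout list (39.3%) and 34 had the same width, with median widths of 1258 and 1244 bases. At least 1 end was identical to the base in 108 pairs (52.4%) and both were in 24 (11.7%). Among 9048 pairs of single counterparts that were wide in neither list, 46.7% were wider in control hearts and 40.7% in knockout hearts, 45.1% shared an end and 8.03% shared both. Over the 307 pairs that were wide in at least 1 list, 152 were wider in control hearts (49.5%) and 121 in knockout hearts (39.4%). More pairs were wider in the control list in each of these sets, and the sets were chosen by width, so they are given as a description. Examples with identical ends were Ier5, an immediate early gene (1966 bases, chromosome 1, 154973417 to 154975382, folds 15.5 and 9.69), and Srl (1168 bases, chromosome 16, 4314303 to 4315470, folds 8.95 and 13.3), which encodes the calcium-binding protein sarcalumenin of the sarcoplasmic reticulum.

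Gene groups were described with 22 lists, beside 497 of 10715 symbols with a wide peak in control hearts (4.64%) and 428 of 10885 in knockout hearts (3.93%). Each count below is of genes with a wide peak among genes of the list with any peak, and the lists share some members. Of sarcomere and Z-disc genes, 5 of 37 had a wide peak in control hearts (13.5%) and 1 of 37 in knockout hearts (2.7%). Xirp1, which encodes the actin-binding protein Xin of intercalated discs, had wide control peaks of 2756 bases (chromosome 9, 119845936 to 119848691, fold 9.9) and 1348 bases (119844139 to 119845486, fold 4.88). The knockout list had 1 wide peak of 1319 bases in the first (119846115 to 119847433, fold 4.59) and covered 68.6% of it, and covered 31.2% of the second with peaks of 271 and 150 bases. Its relative Xirp2 had 1558 bases in the control list (chromosome 2, 67355222 to 67356779, fold 6.64), of which a knockout peak of 421 bases covered 27.0%. Speg, a kinase gene of striated muscle, had 1830 bases (chromosome 1, 75398249 to 75400078, fold 8.21), with knockout peaks of 990 and 481 bases. Obsl1, a cytoskeletal adaptor gene, had 1168 bases in the control list, of which a pair of knockout peaks covered 92.4%. In Xirp1, Xirp2, Speg and Obsl1 the stretch was thus called in both lists, and knockout peaks covered only part of the wide control peaks. Hearts were sampled whole, so fewer cells of a type and less modified RNA per cell cannot be told apart.

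Calcium handling genes counted 2 of 18 in control hearts (11.1%) and 1 of 21 in knockout hearts (4.76%). Jph2, which encodes junctophilin that tethers the sarcoplasmic reticulum to the cell membrane, had 1259 bases in the control list (chromosome 2, 163178162 to 163179420, fold 5.31), and knockout peaks of 450 and 331 bases covered 62.0% of it. Srl, given above, had the same peak in both lists. Ion channels, connexins and Popeye genes counted 4 of 26 (15.4%) and 2 of 21 (9.52%). Kcna5, which encodes a potassium channel of atrial repolarisation, had 1134 bases in control hearts (chromosome 6, 126510229 to 126511362, fold 15.9). The knockout list had 2206 bases (126510170 to 126512375, fold 22.8), over this peak and a second control peak of 716 bases. Gjc1, the connexin 45 gene of the conduction system, had 1259 and 1199 bases (chromosome 11, both ending at 102691693). Kcne1, which encodes a potassium channel subunit, had 1042 bases in the control list (chromosome 16, 92142900 to 92143941, fold 12.8), of which a knockout peak of 328 bases covered 31.5%. Cacna1h, a T-type calcium channel gene, had 1019 bases, of which a knockout peak of 750 bases covered 73.6%. Members of this list hence went both ways. The Kcna5 stretch was 1 peak in the knockout list, of which the pair of control peaks covered 83.9%. Kcne1 and Cacna1h were wider in the control list.

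**Figure D4:**
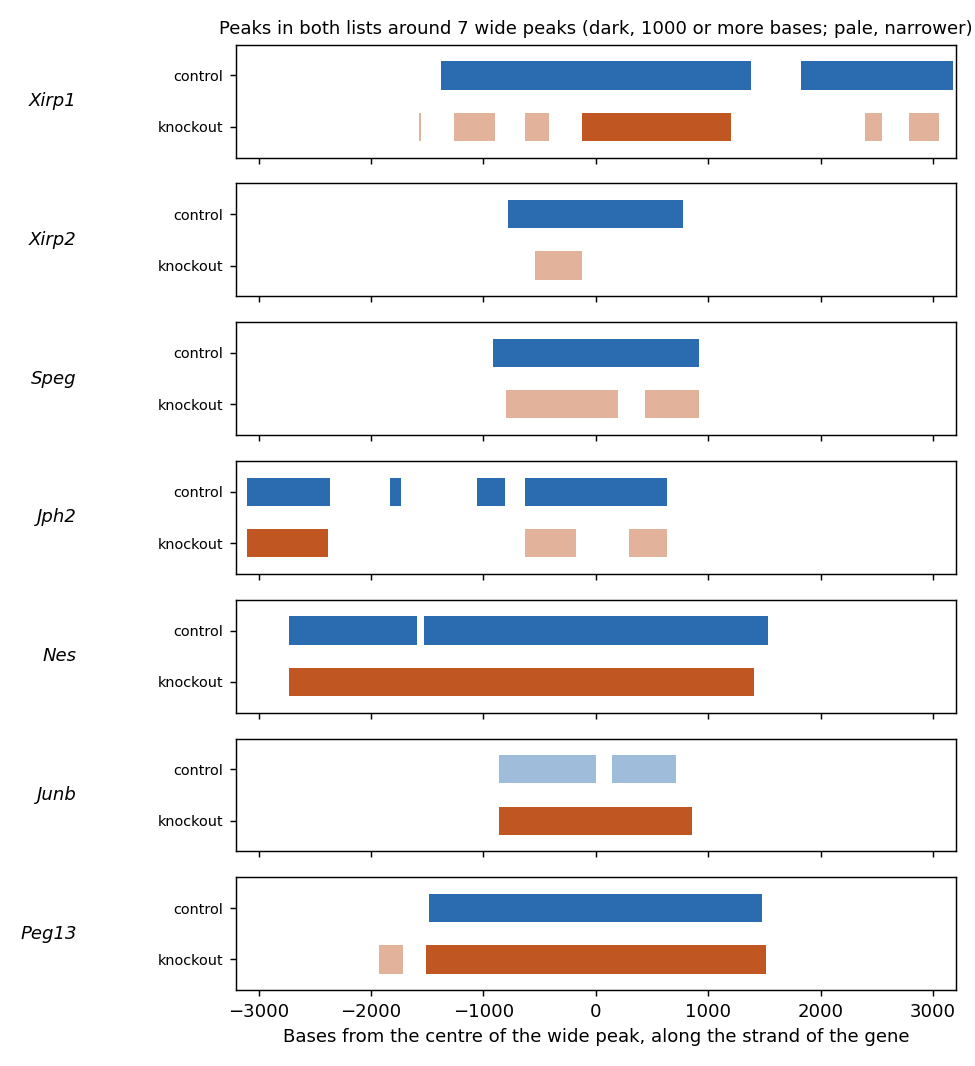
Peaks of both lists around the wide peak of 7 genes, in bases from the centre of that peak along the strand of the gene, with control peaks in blue and knockout peaks in orange. Dark bars are blocks of peaks of 1000 or more exonic bases and pale bars are blocks of narrower peaks. The wide control peaks of Xirp2, Speg and Jph2 face narrower knockout peaks, Junb shows the reverse, and Peg13 is alike in both lists.

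Fatty acid oxidation genes counted 2 of 23 in control hearts (8.7%) and 0 of 23 in knockout hearts. Ucp3, which encodes a mitochondrial uncoupling protein of muscle, had 1344 bases (chromosome 7, 100134266 to 100135609, fold 13.1), of which a knockout peak of 479 bases (fold 3.54) covered 35.6%. Acacb, the acetyl-CoA carboxylase gene whose product restrains fatty acid entry into mitochondria, had 1167 bases (chromosome 5, 114387656 to 114388822, fold 4.96), of which a knockout peak of 330 bases covered 28.3%. No gene of glucose use had a wide peak, among 17 and 18 with a peak. Cardiac transcription factors counted 4 of 30 (13.3%) and 1 of 30 (3.33%). Zfpm1, which encodes the GATA cofactor FOG1, had 1378 bases in control hearts (chromosome 8, 123062224 to 123063601, fold 11.9) and 1318 in knockout hearts (fold 4.77). Prdm16, a regulator gene of compact myocardium, had 1290 bases in the control list (chromosome 4, 154403908 to 154405197, fold 16), with knockout peaks of 241 and 510 bases. Tbx18, a gene of the epicardium and sinus node, had 1106 bases, with knockout peaks of 688 and 210 bases. Mrtfb, a coactivator gene of serum response factor, had 1020 bases, of which a knockout peak of 780 bases covered 73.6%. Cardiac stress and fetal genes counted 2 of 15 and 1 of 19, with Egr1, an immediate early gene, at 1286 and 1674 bases beside Xirp2.

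Among marker genes of other heart cell types, a few had a wide peak. Endothelial and endocardial markers counted 4 of 23 in each list (17.4%), and the genes were the same. Cdh5, the VE-cadherin gene, had 1313 bases in control hearts (chromosome 8, 104869146 to 104870458, fold 8.15) and 1760 in knockout hearts (fold 12.2), Erg, an ETS factor gene, had 1644 and 1704, Aplnr, the apelin receptor gene, had 1313 and 1552, and Eng, a TGF-beta co-receptor gene, had 1110 and 1230. The listed folds were 8.15, 23.4, 7.19 and 10.3 in control hearts and 12.2, 68.9, 15.9 and 15.1 in knockout hearts. All 4 were wider in the knockout list, though the Cdh5 knockout peak also held a second control peak of 299 bases. Fibroblast and matrix markers counted 2 of 23 and 2 of 24. Vcan, which encodes the matrix proteoglycan versican, had 1588 bases in control hearts (chromosome 13, 89837122 to 89838709) and 1828 in knockout hearts, and a second wide knockout peak of 1049 bases at 89804509 to 89805557 over a control peak of 959 bases. Tnc, the tenascin C gene, had 1197 and 1286 bases. Cspg4, a pericyte gene, was the 1 smooth muscle and pericyte marker with a wide peak in each list, at 1350 and 1170 bases. No immune or erythroid marker had one, among 6 and 7 with a peak. The part of cell composition in these differences was not tested.

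Transcripts of genes without introns form a single block, so the block rule removes none of their peaks. In a list of such genes 9 of 19 had a wide peak in control hearts (47.4%) and 13 of 19 in knockout hearts (68.4%), with 8 in both. Jun, an AP-1 gene, had 2504 bases in control hearts (chromosome 4, 94937956 to 94940459, fold 20.7) and 1372 in knockout hearts from the same start (fold 22.3), next to a knockout peak of 954 bases. Junb, another AP-1 gene, had the reverse form, with 1720 bases in the knockout list (chromosome 8, 85703628 to 85705347, fold 27.5) over control peaks of 564 and 861 bases. The transcription factor genes Cebpb, with 1416 bases (chromosome 2, 167530894 to 167532309, fold 11.3), Cebpd, with 1229 (chromosome 16, 15705150 to 15706378, fold 13.2), and Foxc1, with 1080 (chromosome 13, 31992234 to 31993313, fold 15.4), had a wide knockout peak over a pair of narrower control peaks. Adrb1, the beta-1 adrenergic receptor gene of the heart, went the other way, with 1647 bases in the control list (chromosome 19, 56711618 to 56713264, fold 15.2), of which knockout peaks of 360 and 300 bases covered 38.3%. Sox4, a progenitor transcription factor gene, had wide control peaks of 1529 and 1199 bases and a wide knockout peak of 1109 bases over the second. In its relative Sox12 each list held a pair of overlapping wide peaks, 1465 and 1350 bases in control hearts and 1614 and 1320 in knockout hearts.

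Chromatin regulators counted 12 of 54 in control hearts (22.2%) and 13 of 52 in knockout hearts (25%), with 9 in both. Ep300, the histone acetyltransferase gene p300, had 2009 bases in control hearts (chromosome 15, 81533400 to 81535408, fold 17.0). The knockout list had peaks of 1381 bases (81533999 to 81535379, fold 12.1) and 450 bases, which covered 91.1% of the control peak. Arid1b, a BAF subunit gene, had 1771 and 1801 bases (chromosome 17, both ending at 5393521), and Srcap, a remodeller gene, had 1828 and 1708. Tet3, a DNA demethylation gene, had 1199 bases in both lists, shifted slightly against each other, while its relative Tet2 had 1379 bases in the control list and knockout peaks of 960 and 181 bases. Kmt2d, a histone methyltransferase gene, had 1410 bases in the knockout list (chromosome 15, 98747523 to 98748932, fold 9.26) over control peaks of 661 and 841 bases. Kdm6b, a histone demethylase gene, had 1140 bases in the knockout list over a control peak of 990, just under the threshold. Arid1a, another BAF subunit gene, had 1769 bases in the knockout list inside a control peak of 1978 exonic bases in 2 blocks. Smarcd3, a BAF subunit gene of heart and skeletal muscle, had 1258 and 1408 bases. The group thus had wide peaks in both lists at similar shares, and single members differed in either direction.

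Giant cytolinkers and membrane scaffolds counted 6 of 24 in control hearts (25%) and 4 of 23 in knockout hearts (17.4%). Ahnak, which encodes a giant membrane scaffold, had control peaks of 1110 and 1141 bases, and the second had a knockout counterpart of 1081 bases with nearly the same fold (9.65 and 9.87, chromosome 19, from 8993522 and 8993612). Plec, the plectin gene, had 1530 and 1350 bases. Its widest peaks ran over several blocks and so fall outside the rule, with 4649 exonic bases in control hearts and 4349 in knockout hearts. Map1a, a microtubule protein gene, had control peaks of 1290 and 1739 bases, each over a pair of narrower knockout peaks, and Dst, the dystonin gene, had 1260 bases over 3 narrower ones. Prx, the periaxin gene, had 1259 bases in the knockout list over control peaks of 391 and 689 bases. Long cadherins counted 4 of 18 (22.2%) and 6 of 17 (35.3%), with Fat4 and Pcdhgc3 wide in the knockout list alone. Fat4, which encodes a giant cadherin of planar polarity, had 1079 bases there (chromosome 3, 39064217 to 39065295, fold 21.5) over control peaks of 300 and 660 bases. Dchs1, its binding partner, had 1469 bases in the control list (chromosome 7, 105403784 to 105405252), wholly inside a knockout peak of 3086 exonic bases that ran over 2 blocks (105402227 to 105405654, fold 58.6). Its wide single-block knockout peak lay elsewhere, with 1079 bases (105420732 to 105421810, fold 88.2) over control peaks of 300 and 480 bases.

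**Figure D5:**
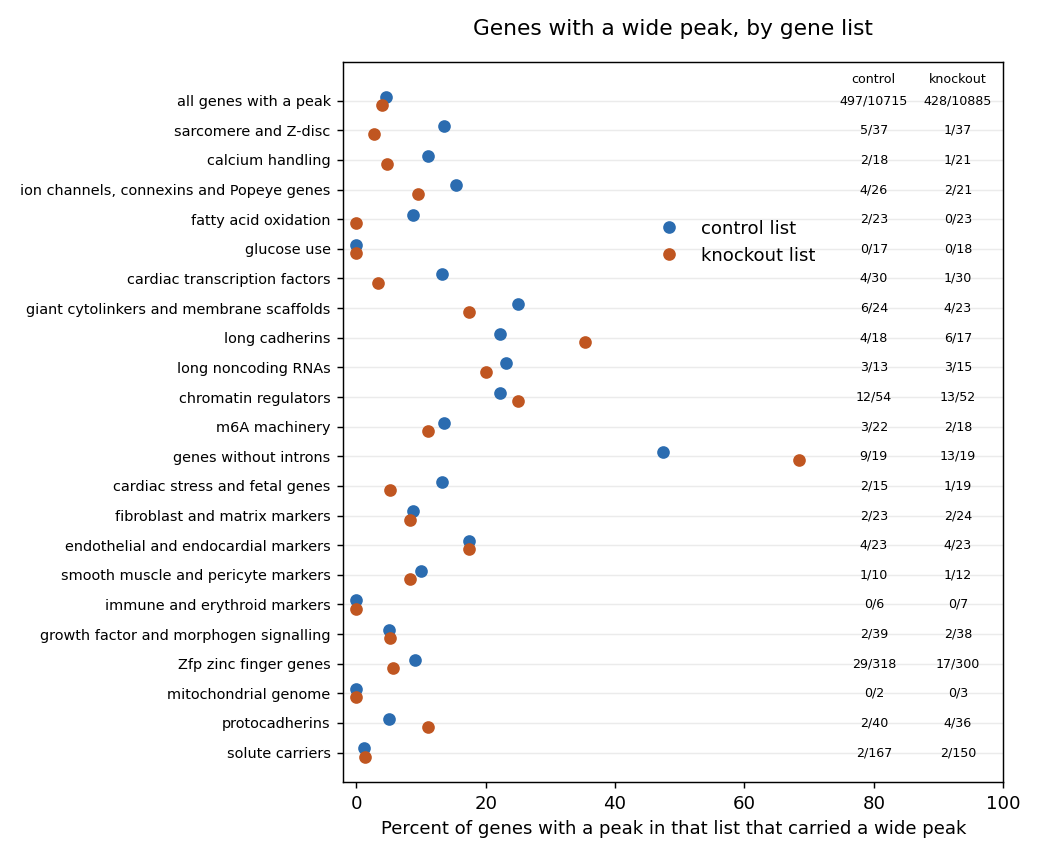
Percent of genes with a peak that carried a wide one (x axis) for each of 22 gene lists and for all genes (y axis), control list in blue and knockout list in orange, with the counts printed at the right. Genes without introns stand highest (47.4% and 68.4%), and sarcomere and Z-disc genes are at 13.5% in control hearts and 2.7% in knockout hearts.

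Zinc finger genes named Zfp made up the largest group, with 29 of 318 in the control list (9.12%), 17 of 300 in the knockout list (5.67%) and 12 in both. Zfp36l2, which encodes an RNA decay factor, had 1765 bases in control hearts and 1735 in knockout hearts (chromosome 17, both from 84492675, folds 19.5 and 40.7). Zfp623 had 1259 and 1828 bases, and all its peaks together took up 1828 bases in each list. Zfp329 had 1677 bases in the control list with a weak log10 p of -5.45 (chromosome 7, 12543750 to 12545426), of which 3 knockout peaks covered 39.4%. Solute carrier genes, also a large group, counted 2 of 167 (1.2%) and 2 of 150 (1.33%). Growth factor and morphogen signalling genes were near the share of all genes, with 2 of 39 and 2 of 38, namely Socs6 and the Wnt receptor gene Fzd1 (1169 and 1020 bases). Protocadherin genes counted 2 of 40 and 4 of 36. No gene of the mitochondrial genome had a wide peak, among only 2 (control) and 3 (knockout) with a peak.

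Of the m6A machinery, 3 of 22 genes with a peak had a wide one in control hearts (13.6%) and 2 of 18 in knockout hearts (11.1%). Rbm15 and Rbm15b encode the RNA-binding subunits that guide the writer complex, and Ythdf1 encodes a cytoplasmic reader. Rbm15 had 1049 bases in control hearts (chromosome 3, 107238415 to 107239463, fold 9.62) and 1438 in knockout hearts, which began further along the chromosome (107239163 to 107240600, fold 19.9). This peak and a knockout peak of 210 bases together covered 48.7% of the control peak. Rbm15b had 1404 bases in the control list (chromosome 9, 106761402 to 106762805, fold 14.7), of which narrower knockout peaks covered 89.4%. Ythdf1 had 1315 and 1285 bases with the same right-hand end (chromosome 2, 180553846) and folds of 6.17 and 2.37. The knockout fold of Ythdf1 was the lowest of all wide peaks of that list.

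Long noncoding RNAs counted 3 of 13 in control hearts and 3 of 15 in knockout hearts, namely Peg13, Neat1 and Malat1. Malat1, a nuclear speckle RNA, had 1200 bases in control hearts (chromosome 19, 5850992 to 5852191, fold 7.71, log10 p -1190) and 1379 in knockout hearts (5850962 to 5852340, fold 5.75, log10 p -1290). Neat1, the RNA of paraspeckles, had 2 overlapping wide control peaks of 1547 and 1560 bases and a wide knockout peak of 2189 bases. Over all genes, 96.0% of wide control and 96.6% of wide knockout peaks lay in protein-coding genes, against 91.3% and 91.4% of all peaks. Genes of lncRNA type held 2.7% and 2.03%, against 2.89% and 2.57% of all peaks. No wide peak lay in a gene typed as a pseudogene (up to 0.708% and 0.827%), against 1.9% and 2.35% of all peaks.

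Within their genes, wide peaks were often the peak closest to the 3′ end. The wide peak was the only listed peak of its gene in 123 control (23.7%) and 81 knockout cases (18.2%). In genes with 2 or more peaks, 179 of 396 wide control peaks were the 3′-most peak (45.2%, 40.2 to 50.3), against 198 of 962 other peaks of the same genes (20.6%, 18.1 to 23.3). In the knockout list it was 173 of 363 (47.7%, 42.4 to 52.9) against 176 of 837 (21.0%, 18.3 to 23.9). The 5′-most place was taken by 22.0% of wide control peaks against 30% of the others, and by 21.2% against 32.4% in the knockout list. Genes with 2 or more peaks were pooled here, and those with many peaks add mostly inner peaks to the others. The shares were not adjusted for the number of peaks per gene. A pair of wide peaks in the same gene was found in 20 control and 15 knockout genes. Armcx4, an armadillo repeat gene on chromosome X, kept both in each list (1738 and 1258 bases in control hearts, 1678 and 1139 in knockout hearts). So did Spen, which encodes a transcriptional corepressor (1020 and 1559, against 1290 and 1050). Son, which encodes a splicing factor of nuclear speckles, had 1290 and 1020 bases in control hearts and 1260 in knockout hearts over the first. Gpatch8, which encodes a G-patch protein, had 1468 and 1768 bases in the control list, and each was divided into a pair of narrower knockout peaks.

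Some wide peaks cannot be given to 1 gene. An opposite-strand peak overlapped 65 wide control peaks (12.5%, 9.8 to 15.7) and 59 wide knockout peaks (13.3%, 10.3 to 16.8), against 7.74% and 7.64% of all peaks. Another listed peak on the same strand overlapped 42 in each list (8.09% and 9.46%), against 4.68% and 4.73% of all peaks, as in Epm2aip1, where a pair of wide control peaks of 1675 and 1613 bases and a pair of wide knockout peaks of 1165 and 1167 bases lay over each other. A wide peak has more bases with which to meet another, and the shares on either strand were not adjusted for width. Joining overlapping wide peaks left 506 control and 430 knockout regions. Wide peaks lay on 20 chromosomes in each list. Their share of all peaks was lowest on chromosome X (1.06% and 1.04%) and chromosome 5 (1.21% and 1.07%), and highest on chromosome 19 in control hearts (3.65%) and chromosome 2 in knockout hearts (3.16%).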

How the data were processed

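MeRIP-seq peak lists of 1 pooled control and 1 pooled knockout heart sample were compared. The authors called peaks with exomePeak 2.16.0 for each IP against its input at a q-value of 0.05, per the series' design text. Build GRCm39, HOMER 4.9.1, BWA 0.7.12 and fastp 0.19.11 are named, without roles, per the submitters' processing notes. The deposited lists give, from the authors' caller, a p-value per peak, a fold enrichment (linear ratio of IP over input), and log10 p and log10 q, which were read as a score because they reach minus infinity. The largest listed log10 q was -1.31 (control) and -1.3 (knockout). Sample titles and the peak list abbreviate the knockout differently, and the genotype label was followed.

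Widths are sums of exonic blocks. Overlaps, counterparts and covered bases were computed with pandas 2.3.3, numpy 2.4.6 and scipy 1.17.1 under Python 3.11.15 (figures with matplotlib 3.10.9). On 472 wide control peaks with simulated counterparts, 100% of forms and of covered bases were recovered. These wide peaks did not overlap each other and the simulated counterparts had a single block, so overlapping and multi-block cases were not tested. A counterpart shares at least 1 exonic base and the strand with a peak. Percentages of peaks have exact (Clopper-Pearson) 95% intervals, which take peaks as independent. No p-value between genotypes was computed, since each group held 1 library. The members and the 22 gene lists were chosen with earlier results of these data known. Genes named are, per list, the 10 widest members, the 8 with the largest fold, the 8 with the smallest log10 p, those with 2 or more wide peaks, the 8 widest without counterpart and the 8 widest divided ones, 4 peaks on each side of 1000 bases and up to 4 members per gene list, which took 137 genes. The marker genes and Adrb1, Arid1a, Cebpb, Cebpd, Dst, Fat4, Foxc1, Kdm6b, Kmt2d, Obsl1, Prx, Smarcd3, Tet2, Tet3, Zfp770 and Znrf3 fall outside this rule, and these 16 genes were chosen after their values were seen. Gene types came from a RefSeq table of GRCm38.p6 that matched 637 of 644 symbols, and none of its coordinates were used. Alternatives changed the width, q and fold thresholds, the block rule, the gene type, the number of peaks and the overlap rule. Joined peaks and the comparison of wide and narrower peaks at a q at or under 1e-10 were added after seeing the data. Peak sequences, motifs and transcript regions were not analysed here. Values of 1 further gene are not reported here.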

Additional observations from a re-analysis of the deposited data

How the results depend on the processing

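The 519 control and 444 knockout wide peaks became 1033 and 864 at 800 bases, 285 and 235 at 1200, and 123 and 103 at 1500. Wide peaks were recounted under 12 alternatives, and the control list held more in each (by 20 to 169). Both counts stayed at 519 and 444 at q at or under 0.01 and at a fold of at least 2. They also stayed when each list was cut to 20766 peaks. These settings removed no wide peak, so they do not test the control surplus. Overlaps between wide peaks of both lists numbered 566 and 567 at 800 bases, 142 and 141 at 1200, 56 and 55 at 1500, and 436 and 435 with any number of blocks. The share of wide control peaks with a counterpart was 99.3% at 1200 bases, 100% at 1500, 90% when both lists were held to q at or under 1e-10, and 91.9% at a fold of at least 4. For wide knockout peaks it was 95.9% at that q. Bases of wide control peaks covered by the other list were 80.5%, 83.3% and 84.2% at 800, 1200 and 1500 bases, 75.7% at that q, 81.6% and 76.3% at folds of at least 2 and 4, 83.5% with any blocks, 82.2% in protein-coding genes and 82% with overlaps of at least 50% of the shorter peak. For wide knockout peaks they were 89.5%, 90.8%, 91.9%, 85.9%, 90%, 88.4%, 89.5%, 89.9% and 89.6% in the same order, and 90.1% without regard to strand. The other 72 of 110 values stayed within their interval or within 1.5 times the main count, among them all forms of counterparts after joining overlapping peaks. For covered bases that interval took single bases as independent. It was therefore far too narrow, and a covered share beyond it does not show a change. No paired analysis was possible because each genotype had 1 IP and 1 input library. Depth is unknown, so the limit it sets on width cannot be given.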
